A study of Mus musculus with 12 samples.

Results

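Expression of 7 genes that carry the chemokine and neuregulin signals of migrating cortical neurons was followed across pyramidal cells and interneurons of the postnatal mouse cortex. The genes were chosen by name. They are the receptor genes Cxcr4, Ackr3 and Erbb4 and the ligand genes Cxcl12, Nrg1, Nrg2 and Nrg3, and all 7 were measured, among 19937 genes that have an unshared probe set. Each has 1 probe set, namely 10357472 for Cxcr4, 10348451 for Ackr3, 10355278 for Erbb4, 10541075 for Cxcl12, 10578045 for Nrg1, 10458323 for Nrg2 and 10419049 for Nrg3.

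GFP-labelled cells were isolated by FACS from C57BL6 mice and their RNA was hybridized to Affymetrix Mouse Gene 1.0 ST arrays. Pyramidal cells came from NexCre;RCE:LoxP mice and were taken at P0, the group Pyr P0, or at P12, the group Pyr P12. Interneurons came from Nkx2-1Cre;RCE:LoxP mice at P0, the group IN P0, or at P10, the group IN P10. Each group holds 3 biological replicates with the letters A, B and C, 1 array each. In both lines the RCE:LoxP reporter gives GFP after Cre recombination, so all 4 groups carry the reporter and a Cre allele, and no genotype was perturbed. NexCre acts in postmitotic glutamatergic neurons of the dorsal telencephalon, whereas Nkx2-1Cre acts in the medial ganglionic eminence and neighbouring ventral regions and leaves out interneurons from the caudal ganglionic eminence. The pyramidal cells are labelled as coming from somatosensory cortex and the interneurons from cortex, so population, driver line and dissected area cannot be told apart. The older groups differ by 2 days of age as well. How many animals stand behind an array is not given in the sources used here, and no treatment was applied beyond the dissociation.

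Interneurons reach the cortex by long tangential migration. The chemokine CXCL12 is known to attract them and to hold them in their migratory streams through the G protein-coupled receptor CXCR4, while the atypical receptor ACKR3 binds and internalizes the same chemokine and so sets how much of it reaches CXCR4. The neuregulins are EGF-like ligands of the receptor tyrosine kinase ErbB4, which is carried in the cortex mainly by interneurons and is used first in migration and later at the excitatory synapses that these cells receive.

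Values are log2 RMA signals as deposited. The background of an array is the level below which 95% of its 1208 olfactory and vomeronasal receptor probe sets lay, between 7.13 and 7.45 on the 12 arrays. The labels fitted the markers. All 7 genes listed as pan-interneuron, Gad1, Gad2, Slc32a1, Dlx1, Dlx2, Dlx5 and Dlx6, were higher in the interneuron group at both ages. Of 15 measured pyramidal genes, 10 were lower at each age. Arrays correlated at 0.995 to 0.999 within groups and at 0.941 to 0.983 between groups. A gene is called higher or lower here at an adjusted p under 0.05 in limma, with all 12 arrays fitted together and Benjamini-Hochberg adjustment over 22961 probe sets, together with a fold change over 2. Because RNA of sorted cells was measured in bulk, fewer cells that express a gene and less RNA per cell cannot be told apart.

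By measured signal, the 3 receptor genes differed by more than 2-fold between groups and the 4 ligand genes did not. Nrg1 came close to that line at 1.997-fold, and Cxcl12 lay near background, where folds are compressed. All 3 receptors had their highest mean in IN P0 and their lowest in Pyr P12, with group means spread over 3.79 log2 units for Cxcr4, 2.80 for Ackr3 and 6.15 for Erbb4. The spread of the ligands was 0.56 for Cxcl12, 1.00 for Nrg1, 0.26 for Nrg2 and 0.36 for Nrg3, beside a median of 0.36 over all genes that have an unshared probe set.

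**Figure D1:**
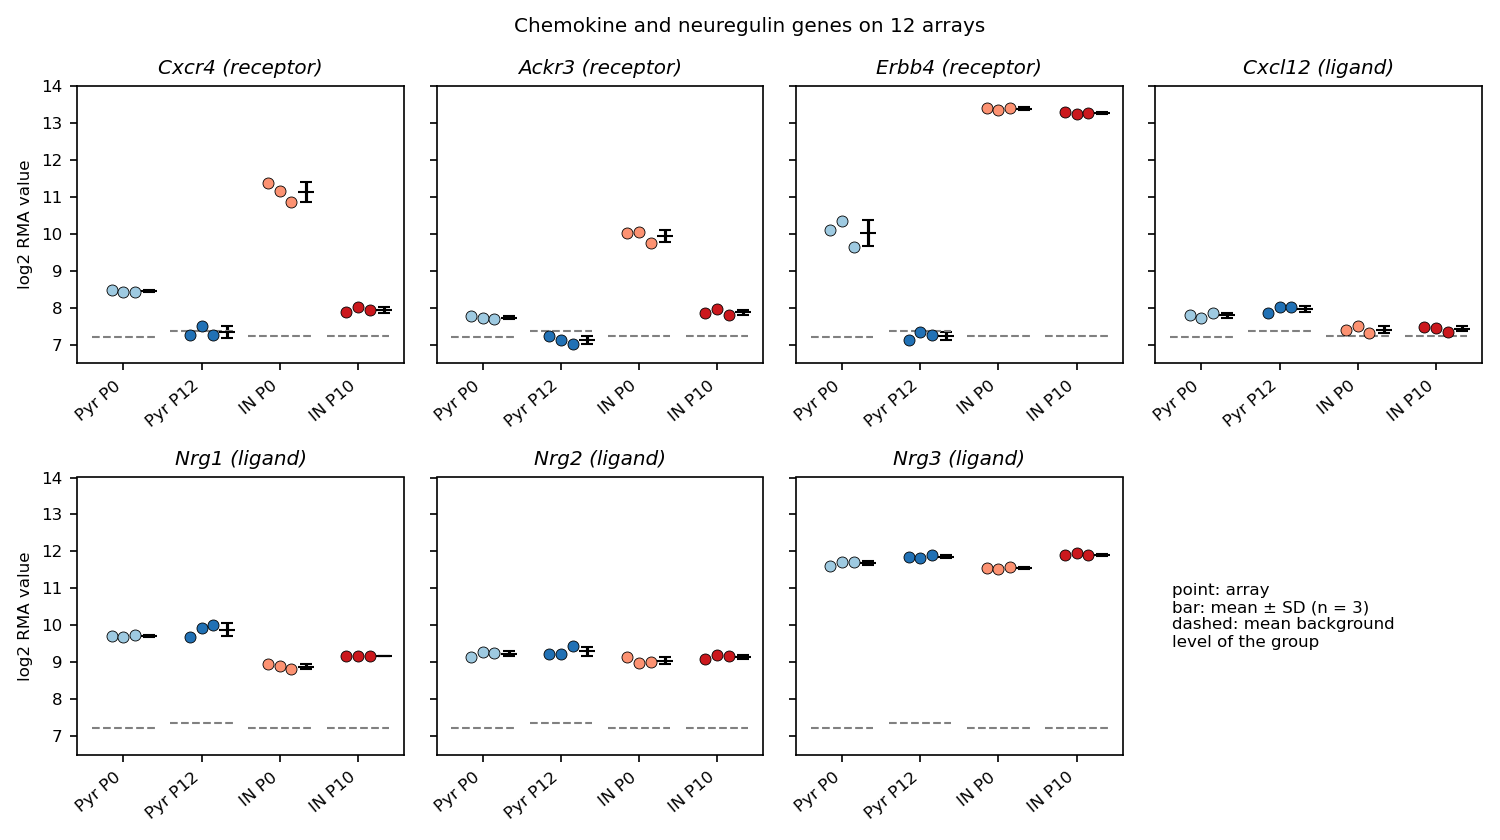
Log2 RMA value (y axis) of each of the 7 genes on every array (points) in the 4 groups (x axis), with bars for the mean ± SD of 3 arrays and dashed lines for the mean background of the group. Cxcr4 and Ackr3 stand high in IN P0 alone, at means of 11.14 and 9.94, Erbb4 stands above 13 in both interneuron groups, and each ligand lies within 1.00 across its group means.

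Cxcr4 transcripts were abundant in the newborn interneurons and were low 10 days later. On arrays A, B and C the IN P0 values were 11.39, 11.15 and 10.86 (11.14 ± 0.26, SD, n = 3), and those of IN P10 were 7.88, 8.04 and 7.94 (7.95 ± 0.08). In Pyr P0 they were 8.49, 8.44 and 8.43 (8.45 ± 0.03), and in Pyr P12 they were 7.26, 7.53 and 7.27 (7.35 ± 0.15). No pair of groups overlapped, the order was IN P0, Pyr P0, IN P10 and Pyr P12, and only 1 of the 3 arrays of Pyr P12 was above background.

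Between IN P0 and IN P10 Cxcr4 fell by 3.19 log2 units, which is 9.10-fold (SE 0.11, adjusted p = 8.75e-11). Among all probe sets, 2.85% were called lower in this comparison and 4.19% higher. In the pyramidal cells Cxcr4 fell by 1.10 (SE 0.11, adjusted p = 1.32e-06), or 2.15-fold, where 3.48% of probe sets were called lower and 5.68% higher. At P0 the interneurons had 6.42-fold more than the pyramidal cells, a log2 difference of 2.68 (SE 0.11, adjusted p = 7.08e-10), against 1.90% of probe sets called higher and 1.74% lower. These comparisons share the P0 groups and are therefore not independent of each other. At the older ages the measured difference was 0.60 (95% interval 0.36 to 0.84, adjusted p = 0.000546), in a comparison that called 2.65% of probe sets higher and 2.91% lower. Since Pyr P12 was at background, this value is a lower bound, and whether the populations drew closer cannot be read from it. The age by population term, the change in interneurons minus that in pyramidal cells, was -2.08 (SE 0.16, adjusted p = 3.52e-07), where 2.24% of probe sets were called positive and 2.63% negative. Pyr P0 lay only 1.23 above background, so a pyramidal fall as large as that of the interneurons could not have been measured, and no direction is read from this term. Of the linear signal over background at P0, 1.48% was left in Pyr P12 and 4.58% in IN P10.

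Ackr3 followed Cxcr4 at a smaller measured size of change. Its values were 10.02, 10.04 and 9.75 in IN P0 (9.94 ± 0.16, SD, n = 3), 7.87, 7.96 and 7.82 in IN P10 (7.89 ± 0.07), and 7.78, 7.72 and 7.71 in Pyr P0 (7.74 ± 0.03). In Pyr P12 they were 7.25, 7.14 and 7.03 (7.14 ± 0.11), on no array above background. IN P0 stood apart from the other groups, and the small gap between IN P10 and Pyr P0, groups that differ in population and age, was not tested.

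Ackr3 fell by 2.05 from IN P0 to IN P10 (SE 0.08, adjusted p = 2.6e-10), or 4.15-fold. At P0 it was 4.59-fold higher in interneurons, a log2 difference of 2.20 (SE 0.08, adjusted p = 2.84e-10). Both of the other differences missed 2-fold. In Pyr P12 against Pyr P0 the log2 difference was -0.60 (adjusted p = 2.42e-05), at least 1.29-fold lower. In IN P10 against Pyr P12 it was 0.75 (adjusted p = 4.9e-06), at least 1.43-fold higher. The age by population term was -1.45 (SE 0.11, adjusted p = 5.45e-07), and no direction is read from it either, because Pyr P0 lay 0.51 above background and the pyramidal change is only a bound. Within each array, the log2 difference of Cxcr4 and Ackr3 was lower in IN P10 relative to IN P0 by a log2 change of -1.13, at the smallest 2-sided p that an exact permutation of 3 against 3 arrays can give, p = 0.1. In IN P10 Cxcr4 and Ackr3 lay only 0.72 and 0.65 above background, after means of 11.14 and 9.94 in IN P0. The change thus depends on the starting levels, and no larger loss of Cxcr4 is read from it.

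Since the chemokine receptor genes moved together, the 250 bases before their annotated starts are shown, as RefSeq gives them on GRCm38.p6. That of Cxcr4 is at chr1:128592300-128592549 on the minus strand and has 61.2% G and C, and that of Ackr3 is at chr1:90203730-90203979 on the plus strand and has 54.0%. Both lie on chromosome 1, read 5′ to 3′, and capitals mark the letters TATAAAA.
Cxcr4: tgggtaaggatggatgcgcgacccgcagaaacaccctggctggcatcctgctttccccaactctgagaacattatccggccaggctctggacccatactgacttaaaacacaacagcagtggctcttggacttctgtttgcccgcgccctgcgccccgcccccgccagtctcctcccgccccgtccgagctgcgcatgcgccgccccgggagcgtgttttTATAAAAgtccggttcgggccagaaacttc
Ackr3: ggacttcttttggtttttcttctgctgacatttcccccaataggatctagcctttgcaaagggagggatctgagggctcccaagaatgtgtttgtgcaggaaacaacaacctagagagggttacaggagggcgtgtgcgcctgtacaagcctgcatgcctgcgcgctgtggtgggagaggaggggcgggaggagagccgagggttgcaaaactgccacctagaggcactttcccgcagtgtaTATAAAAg
Both windows hold TATAAAA, the letters of a TATA box, with the first base 30 bases before the start of Cxcr4 and 8 bases before that of Ackr3. On either strand it is present in 4.98% of 32851 promoter windows of this length. In Cxcr4 the same letters also match on the other strand at 33 bases before the start, overlapping the first match. GGGCGG, the GC box, is in both and in 32.7% of windows. TAATTA, the core that many homeodomain factors bind, is in neither and in 4.84% of windows. These matches describe letters, and binding was not measured.

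Erbb4 stayed high in the interneurons at the age when Cxcr4 and Ackr3 were low. Its values in IN P0 were 13.42, 13.34 and 13.41 (13.39 ± 0.04, SD, n = 3), and those of IN P10 were 13.28, 13.23 and 13.27 (13.26 ± 0.03). In Pyr P0 they were 10.11, 10.34 and 9.66 (10.04 ± 0.35), and in Pyr P12 they were 7.12, 7.34 and 7.27 (7.24 ± 0.11), on no array above background. All 6 interneuron arrays lay above all 6 pyramidal arrays, and the arrays of Pyr P0 differed from each other more than those of any other group.

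From IN P0 to IN P10 the log2 difference of Erbb4 was -0.13 (95% interval -0.40 to 0.14, adjusted p = 0.479), although the arrays of the groups did not overlap. With the interneuron groups alone in limma its adjusted p was 0.0394, and SAM gave 0.00854, whereas the spread shared by the 4 groups includes that of Pyr P0. The fold stayed under 2 in each case. In the pyramidal cells Erbb4 fell by 2.79 with age (SE 0.13, adjusted p = 4.44e-10), at least 6.36-fold. It was 10.2-fold higher in interneurons at P0, a log2 difference of 3.35 (SE 0.13, adjusted p = 3.09e-10). In IN P10 against Pyr P12 the log2 difference was 6.02 (SE 0.13, adjusted p = 8.95e-13). The age by population term was 2.66 (SE 0.18, adjusted p = 1.28e-07), with the pyramidal fall a bound.

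Cxcl12, the gene of the ligand that CXCR4 and ACKR3 share, was close to background in all groups. Pyramidal values were 7.81, 7.73 and 7.86 at P0 (7.80 ± 0.07, SD, n = 3) and 7.87, 8.03 and 8.02 at P12 (7.98 ± 0.09). Interneuron values were 7.40, 7.51 and 7.33 at P0 (7.41 ± 0.09) and 7.49, 7.45 and 7.36 at P10 (7.43 ± 0.07). Each of the 12 arrays was above the 95th percentile of the olfactory and vomeronasal receptor probe sets and none was above the 99th. Every pyramidal array lay above every interneuron array. The log2 difference of interneurons from pyramidal cells was -0.39 at P0 (adjusted p = 0.000547) and -0.54 at the older ages (adjusted p = 1.42e-05), both under 2-fold as measured. Interneuron means lay only 0.18 above background at P0 and 0.20 at P10. Signals compress there, so these folds may be too small. With age it was 0.02 in interneurons (95% interval -0.12 to 0.16, adjusted p = 0.857) and 0.18 in pyramidal cells (adjusted p = 0.0358).

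In the brain CXCL12 is known to come from meninges, vessels and, at early stages, Cajal-Retzius cells. Of 9 measured endothelial genes limma and SAM called 0 in any comparison between groups, where limma called 3.64% to 9.16% of all probe sets. In these comparisons 0 to 2 of the 9 had an unadjusted p under 0.05. The summed linear signal of the 9 over background was 146 to 265 over all 12 arrays. Of 13 mural, fibroblast and meningeal genes 1 was called, Cspg4, which encodes a proteoglycan that oligodendrocyte precursors also carry, and their summed signal was 748 to 1047 in pyramidal and 1325 to 2519 in interneuron arrays. Of the 7 Cajal-Retzius genes, Reln was higher in interneurons at both ages. Calb2 and Ndnf are genes that some interneurons also use. Calb2 was lower in interneurons at P0 but higher at the older ages, and it rose with age in interneurons. Ndnf was higher in interneurons at the older ages only. Reln and Ndnf fell with age in pyramidal cells, whereas Trp73, Lhx1, Lhx5 and Ebf3 were called in no comparison by limma. The part of these cells in the Cxcl12 signal was not tested.

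Among the neuregulins Nrg1 differed most. Pyramidal arrays had 9.71, 9.69 and 9.75 at P0 (9.72 ± 0.03, SD, n = 3) and 9.70, 9.94 and 10.02 at P12 (9.89 ± 0.17). Interneuron arrays had 8.95, 8.90 and 8.81 at P0 (8.89 ± 0.07) and 9.19, 9.18 and 9.18 at P10 (9.18 ± 0.01). All pyramidal arrays lay above all interneuron arrays. The log2 difference was -0.83 at P0 (95% interval -0.98 to -0.67, adjusted p = 1.14e-06) and -0.71 at the older ages (95% interval -0.87 to -0.55, adjusted p = 3.06e-06), so the gap was below 2-fold in both. With age the log2 difference was 0.29 in interneurons (adjusted p = 0.00443) and 0.17 in pyramidal cells (adjusted p = 0.0605), and the age by population term was 0.12 (adjusted p = 0.427).

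Nrg2 was nearly level. Pyramidal arrays ran from 9.15 to 9.29 at P0 and from 9.23 to 9.45 at P12, and interneuron arrays from 8.99 to 9.15 at P0 and from 9.10 to 9.20 at P10. None of its log2 differences, from -0.19 to 0.11, passed the adjusted p, and the smallest adjusted p was 0.0771, for IN P0 against Pyr P0. Nrg3, which like Nrg1 encodes a membrane-bound ErbB4 ligand, had 11.62, 11.71 and 11.72 at P0 and 11.86, 11.82 and 11.91 at P12 in pyramidal cells. In interneurons it had 11.56, 11.51 and 11.58 at P0 and 11.90, 11.95 and 11.90 at P10. It was the only ligand with its highest mean in IN P10, where the arrays overlapped those of Pyr P12. Its log2 difference with age was 0.36 in interneurons (95% interval 0.26 to 0.47, adjusted p = 3.22e-05) and 0.18 in pyramidal cells (adjusted p = 0.00698), and neither reached 2-fold.

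Set beside each other, 2 of 3 receptors were called with age in interneurons, 2 with age in pyramidal cells, 3 between the populations at P0 and 1 between the older populations. Of the 4 ligands limma called 0 in each, as did SAM, while 2, 3, 4 and 2 had an unadjusted p under 0.05, in the same order of comparisons. Of all probe sets tested, limma called 7.04%, 9.16%, 3.64% and 5.56% in that order, so a count of 0 among 4 genes is not particular to the ligands. In that order, the median size of the log2 difference was 2.05, 1.10, 2.68 and 0.75 for the receptors, 0.20, 0.17, 0.29 and 0.34 for the ligands, and 0.16, 0.20, 0.08 and 0.17 over all probe sets tested. For each receptor and its own ligand the change was also taken within arrays. The log2 value of Cxcr4 minus that of Cxcl12 was 3.07 higher in interneurons at P0 and 1.14 higher at the older ages. That of Erbb4 minus Nrg1 was 4.18 higher at P0 and 6.72 higher at the older ages. The values at the older ages are measured against Pyr P12 at background and are lower bounds, so that the chemokine pair cannot be compared between ages. Its P0 value is limited as well, since Cxcl12 lay only 0.18 above background in IN P0. Each of these 4 within-array differences had an exact permutation p = 0.1, the smallest that 3 against 3 arrays allow.

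**Figure D2:**
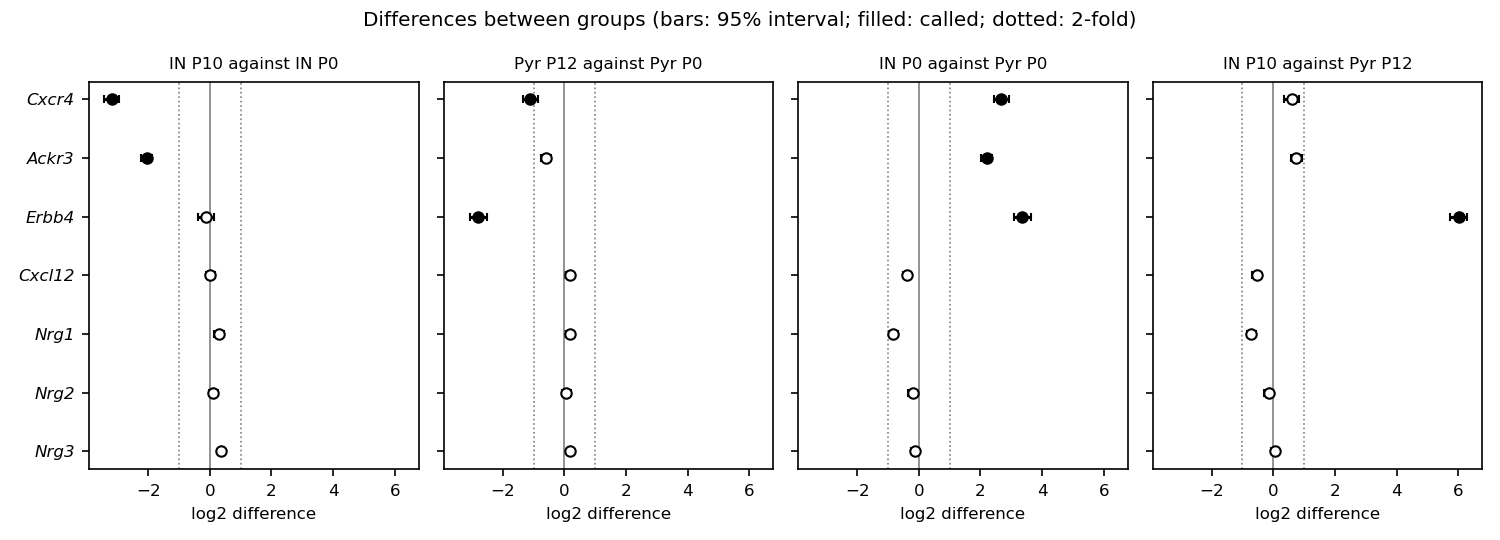
Log2 difference between groups (x axis) for each of the 7 genes (y axis) in 4 comparisons, with bars for the 95% interval, filled points for called differences and dotted lines at a fold of 2. Filled points stand at receptors only, from -3.19 for Cxcr4 in IN P10 against IN P0 to 6.02 for Erbb4 in IN P10 against Pyr P12.

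Few other chemokine genes were called. Of 22 measured chemokine receptor genes, 10 of them above background in at least 1 group, none but Cxcr4 and Ackr3 was called in any comparison. With age 2 of the 22 were called in interneurons and 1 in pyramidal cells, beside 7.04% and 9.16% of all probe sets. Between the populations 2 were called at P0 and 0 at the older ages, beside 3.64% and 5.56%. Of 36 chemokine ligand genes 15 were above background. Cx3cl1, which encodes the neuronal ligand of a microglial receptor, rose in both populations, by 2.24 in interneurons (adjusted p = 5.72e-11) and by 3.53 in pyramidal cells (adjusted p = 5.3e-13). Ccl17, a ligand gene of CCR4, rose by 1.52 in pyramidal cells (adjusted p = 1.79e-08). Ccl19, a ligand gene of CCR7, had a log2 difference of -1.14 there (adjusted p = 1.73e-05) and was 1.12 higher in IN P10 against Pyr P12 (adjusted p = 3.31e-05). These 3 of 36 ligand genes were called with age in pyramidal cells, where 5.68% of all probe sets were called higher and 3.48% lower, so the ligand list lay near the general share. The list median of the ligand genes was -0.04 in IN P10 against IN P0, beside 0.00 over all probe sets.

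Downstream of chemokine receptors, 11 genes for G protein subunits, arrestins, receptor kinases and regulators were measured. In each age comparison limma and SAM called 0 of them, with 6 in interneurons and 8 in pyramidal cells at an unadjusted p under 0.05. Limma called 7.04% and 9.16% of all probe sets there, so a count of 0 among 11 genes is not particular to this list. Without a fold threshold 45.5% and 54.7% of all probe sets passed the adjusted p. Grk3, which encodes a kinase that desensitizes G protein-coupled receptors, was higher in interneurons by 1.27 at P0 (adjusted p = 6.75e-08) and by 1.49 at the older ages (adjusted p = 7.59e-09). Its mean was 11.28 in IN P10 and 11.56 in IN P0, a log2 difference of -0.28 (adjusted p = 0.0155) that missed 2-fold.

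In the ErbB family Erbb4 was the only one of 4 receptor genes that was called. Erbb2, the receptor gene that has no known ligand of its own, had group means of 7.23 to 7.31, near background. Egfr, the EGF receptor gene, had means of 7.26, 7.16, 7.62 and 7.79 in Pyr P0, Pyr P12, IN P0 and IN P10, and Erbb3, a neuregulin receptor gene of the oligodendrocyte and Schwann cell lineages, had 7.31, 7.16, 7.97 and 7.68. Among 10 measured genes of EGF-family ligands, the neuregulins included, 7 were above background, and Hbegf, which encodes a further ligand of ErbB4, was 1.05 higher in IN P10 against Pyr P12 (adjusted p = 6.57e-09), with a difference of 0.73 at P0 that stayed under 2-fold.

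Neuregulins are shed from the membrane by proteases, and 10 genes of these enzymes were measured, all 10 above background. Bace1, the best known of these enzymes, had means of 11.26 to 11.89 and was not called. Bace2, its close relative, rose by 1.62 in pyramidal cells (adjusted p = 1.82e-10) and was lower in IN P10 against Pyr P12 (log2 difference -1.17, adjusted p = 7.63e-09), and Adam9, a membrane metalloprotease gene, rose by 1.13 in pyramidal cells (adjusted p = 2.05e-09). No protease gene was called with age in interneurons by limma or SAM, where 8 had an unadjusted p under 0.05. Limma called 7.04% of all probe sets there, so a count of 0 among 10 genes is not particular to this list. Without a fold threshold 45.5% of all probe sets passed the adjusted p.

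Of 15 measured partner genes of ErbB4, only Erbin was called in the same comparisons and directions as Erbb4. Erbin encodes a scaffold that binds ErbB receptors and had means of 9.94 and 7.95 in pyramidal cells at P0 and P12 and of 11.55 and 11.21 in interneurons at P0 and P10. In pyramidal cells it fell by 1.99 with age (adjusted p = 3.57e-09), it was higher in interneurons by 1.61 at P0 (adjusted p = 8.75e-08) and by 3.26 at the older ages (adjusted p = 5.03e-11), and its age by population term was 1.65 (adjusted p = 2.94e-06). Stat5b, a transcription factor gene that ErbB4 signalling can engage, was also higher in interneurons, by 1.54 at P0 and 1.04 later (adjusted p = 6.91e-08 and 2.14e-06). Dlg4, the gene of the postsynaptic scaffold PSD-95 that binds ErbB4, rose by 1.13 in pyramidal cells (adjusted p = 3.14e-10), and Pik3r1, a subunit gene of the PI3 kinase, was lower in IN P0 than in Pyr P0 (log2 difference -1.18, adjusted p = 9.03e-09).

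Markers of other cells moved beside the receptors. Of 10 oligodendrocyte precursor genes 9 were higher in interneurons at each age, and all 10 were above background there, with summed signals over background of 12886 to 16385 in IN P0 and 13340 to 20315 in IN P10 against 3463 to 4103 in the pyramidal groups. Pdgfra, which such precursors use to respond to PDGF, had interneuron means of 11.91 at P0 and 10.57 at P10 and fell with age along with Cspg4, while Gpr17 and Bcas1, genes of later precursors, rose. The 6 cycling genes had 343 to 361 in IN P0 and 113 to 196 in IN P10. Limma and SAM called 0 of them in that comparison, where limma called 7.04% of all probe sets. All 6 had an unadjusted p under 0.05. The summed signal of 15 pyramidal genes in the interneuron arrays was 13697 to 16376 at P0 and 8574 to 9065 at P10, with 5 of the genes called lower and 1 higher. The 12 microglial and macrophage genes, of which 4 were above background in IN P0 and 7 in IN P10, had 880 to 1159 in IN P0 and 480 to 508 in IN P10. Only Cd68 was called between these groups, as lower, and the list median of the log2 difference was 0.09, so the fall of the sum was not shared by the list. The 10 myelinating oligodendrocyte genes had 1515 to 1723 in IN P0 and 4945 to 7133 in IN P10, and Mag, Cnp and Cldn11, which encode myelin proteins, were called higher. In the pyramidal arrays the 12 astrocyte genes had 1183 to 1383 at P0 and 7511 to 7735 at P12, and Aldh1l1, a folate enzyme gene, and Slc1a2, a glutamate transporter gene, were called higher. The part of these cells in the levels of Cxcr4, Ackr3 and Erbb4 was not tested.

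Interneuron genes were also above background in the pyramidal arrays at P0. The linear signal over background in Pyr P0, as a percentage of that in IN P0, was 9.43 for Cxcr4, 7.59 for Ackr3 and 8.68 for Erbb4 (SD 0.89, 2.07 and 2.46 over 3 arrays). For the 7 pan-interneuron genes it ran from 4.33 to 12.1 with a median of 8.13. The summed signal of those 7 genes was 3320, 3805 and 2130 on arrays A, B and C of Pyr P0, in the same order of arrays as Erbb4 but not as Cxcr4 and Ackr3, which were highest on A, and 377 to 553 in Pyr P12 against 31312 to 36197 in the interneuron groups. Of the 7 genes, 5 were also called lower in Pyr P12 than in Pyr P0, namely Gad1, Gad2, Dlx1, Dlx2 and Dlx5. In Pyr P12 relative to IN P10 the share was 3.06% for Cxcr4, where 1 of 3 arrays was above background, while Ackr3 and Erbb4 were not above background, and the median of the pan-interneuron genes was 1.91%. With the background set at the median of the olfactory and vomeronasal receptor probe sets, a setting added after the data were seen, the P0 shares were 13.3% for Cxcr4, 17.0% for Ackr3 and 9.50% for Erbb4 beside a median of 10.9% (6.10% to 13.4%). The part of interneuron RNA in the pyramidal values of the receptors was not tested.

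**Figure D3:**
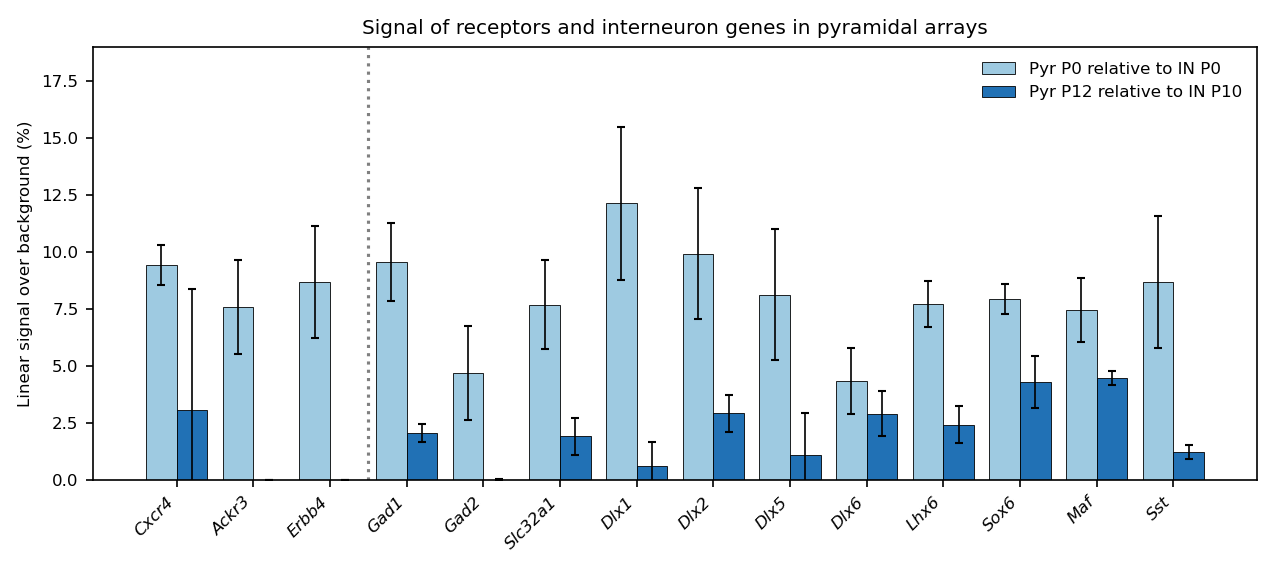
Linear signal over background in pyramidal arrays as a percentage of that in interneuron arrays of the matching age group (y axis), for the 3 receptor genes and, right of the dotted line, interneuron genes (x axis), with bars for the mean of 3 pyramidal arrays and error bars for their SD. At P0 the receptors stand at 7.59% to 9.43%, between the lowest and highest pan-interneuron genes at 4.33% and 12.1%, and in Pyr P12 no bar is drawn for Ackr3 and Erbb4, which were not above background.

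In interneurons little of the P0 signal was left for Cxcr4 and Ackr3, and most of it for Erbb4. IN P10 had 4.58% of the linear signal over background of IN P0 for Cxcr4, 10.3% for Ackr3 and 91.3% for Erbb4. The 7 pan-interneuron genes ran from 31.4% to 254%, so the remaining shares of Cxcr4 and Ackr3 lay below all of them and that of Erbb4 lay among them. Pyr P12 had 1.48% of the signal of Pyr P0 for Cxcr4, with only 1 of 3 arrays above background. It was not above background for Ackr3 and Erbb4, while the pan-interneuron genes ran from 0.205% to 77.7% there.

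Genes with a like pattern were ranked by the root mean square difference of the 12 log2 values after each gene's own mean was taken off, among 14630 genes. The closest to Cxcr4 were Neb, the gene of the thin filament protein nebulin, at 0.39, Ackr3 itself at 0.46 and Wnt7a, a Wnt ligand gene, at 0.55. The closest to Ackr3 were Wnt7a at 0.24, Pola1, the gene of the catalytic subunit of DNA polymerase alpha, at 0.26 and Edaradd, an adaptor gene of the ectodysplasin receptor, at 0.29. Each of these genes had its highest mean in IN P0. The closest to Erbb4 were Gad2, which encodes a GABA-synthesizing enzyme, at 0.51, Dlx1, a homeobox gene of the ventral telencephalon, at 0.63 and Nxph1, the gene of the neurexin ligand neurexophilin 1, at 0.70. Gad2 had means of 8.76 and 7.21 in pyramidal cells at P0 and P12, and of 12.65 and 13.10 in interneurons at P0 and P10. The ligands, with ranges of 1.00 or less, were not matched to other genes.

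**Figure D4:**
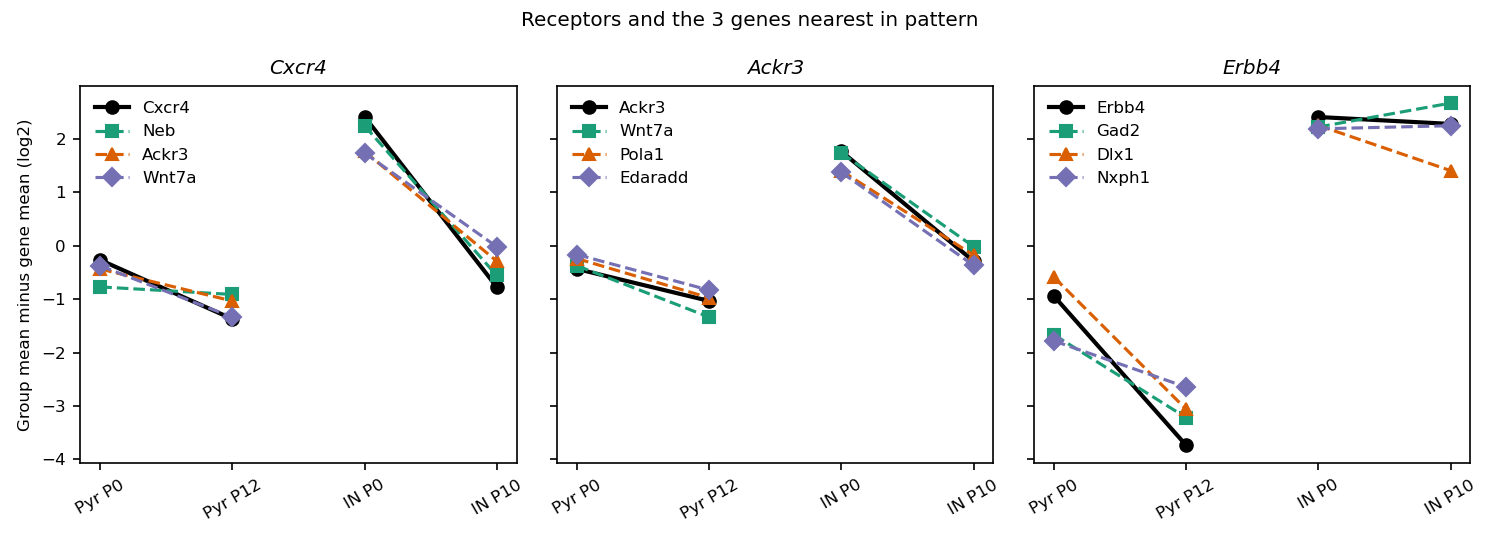
Group mean minus the gene's own mean over 12 arrays (y axis, log2) in the 4 groups (x axis), for each receptor gene (black) and the 3 genes nearest to it (coloured). The curves of Cxcr4 and Ackr3 peak in IN P0, and that of Erbb4 stays high in both interneuron groups together with Gad2 at a distance of 0.51.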

How the data were processed

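GFP-positive pyramidal cells (NexCre;RCE:LoxP) and interneurons (Nkx2-1Cre;RCE:LoxP) were measured on 12 arrays in 4 groups of 3, grouped by the sample titles. The log2 values are as deposited by the authors, who normalized the arrays with RMA, which corrects background, equalizes distributions by quantiles and summarizes probes. Software versions of that step are not given in the sources used here.

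Of 28192 probe sets, 22961 with a gene symbol in the platform annotation were tested. One model with a mean for each of the 4 groups, no block and 8 residual degrees of freedom was fitted with limma 3.58.1 under R 4.3.3. 5 contrasts were taken, the calls and the background level being as stated above. A group with no array above background gives only a bound on a fold. The number of arrays limits the precision. The script was tested on simulated data. Plots used matplotlib 3.10.9 (Python 3.11.15).

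The 7 genes, the 7 pathway lists and the 13 marker lists were chosen with earlier results of these data known. The genes named are the 7, pathway list members called in a comparison, some of the markers called where one of the 7 was, and the 3 genes nearest in pattern. Not all such markers are named, and the marker lists of the medial and caudal ganglionic eminence are not described. Erbb2, Egfr, Erbb3, Bace1 and the uncalled Cajal-Retzius genes were named after their values were seen. Alternatives were SAM, other fits, filters, scalings and thresholds, a replicate block and leaving out each array. No protein sequences were used here.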

Additional observations from a re-analysis of the deposited data

Results flagged for a closer look

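The age by population term, the log2 change in interneurons minus that in pyramidal cells, passed limma's test over 12 arrays for all 3 receptor genes. It was -2.08 for Cxcr4 (SE 0.16, adjusted p = 3.52e-07) and -1.45 for Ackr3 (SE 0.11, adjusted p = 5.45e-07). For both, the pyramidal values started 1.23 and 0.51 above background and ended at it, so a fall as large as that of the interneurons could not have been measured and neither term shows a larger loss in interneurons. Of the linear signal over background at P0, 1.48% of Cxcr4 was left in Pyr P12 and 4.58% in IN P10, and Ackr3 was not above background in Pyr P12 with 10.3% left in IN P10. Erbb4 had 2.66 (SE 0.18, adjusted p = 1.28e-07), with a called fall in pyramidal cells that is a bound, and 5 of 7 pan-interneuron genes were called lower there as well. P0 signals of interneuron genes in the pyramidal arrays stand beside these values in the text, and their part was not tested. The older ages were 10 days for interneurons and 12 for pyramidal cells.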

How the results depend on the processing

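All 11 called differences of the 7 genes kept their direction and their call in the 269 values recomputed under 25 alternative settings. Of 861 values in all, 841 kept direction and side of the threshold, 16 passed only because the fold threshold was lowered or dropped, and 4 uncalled values changed sign. These were Cxcl12 in IN P10 against IN P0 without IN P0 replicate C (-0.019) and without IN P10 replicate A (-0.0091), over a range of -0.019 to 0.068 when 1 array was left out, and Nrg2 in Pyr P12 against Pyr P0 after a second quantile normalization (-0.0062) and without Pyr P12 replicate C (-0.0036), over a range of -0.0036 to 0.11.

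Without a fold threshold, the number of the 7 genes called became 5 in IN P0 against Pyr P0 in place of 3, 4 in IN P10 against IN P0 in place of 2, 5 in IN P10 against Pyr P12 in place of 1, and 5 in Pyr P12 against Pyr P0 in place of 2, while the share of all probe sets called rose to between 22.4% and 54.7%. A fold over 1.5 gave 4 in IN P10 against Pyr P12, 4 in IN P0 against Pyr P0 and 3 in Pyr P12 against Pyr P0, where 13.1%, 7.30% and 20.9% of all probe sets were called. With lower background percentiles, the median and the 90th, added after the data were seen, the shares in Pyr P0 became 13.3% and 11.1% for Cxcr4 and 17.0% and 11.7% for Ackr3.

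With a replicate block the counts of called genes were 2 in IN P10 against IN P0, 2 in Pyr P12 against Pyr P0, 3 in IN P0 against Pyr P0, 1 in IN P10 against Pyr P12 and 3 for the age by population term, the same as without it. Deviations of arrays with the same letter correlated at -0.18 to 0.19, with 4 of 12 pairs over 0.1. Unlike letters gave -0.26 to 0.30, so no pairing by letter was seen, although 3 arrays a group cannot exclude it. Leaving out 1 array changed no count.

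Limits lie in the low signals. Pyr P12 had no array above background for Ackr3 and Erbb4 and 1 of 3 for Cxcr4, and array signals compress toward background, so folds against such groups are bounds. With 3 arrays a group, exact tests cannot go below 0.1.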
